A study of Homo sapiens with 4 samples.

Results

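GPNMB, TRIM63, CTSK, PMEL and MLANA are genes whose products are used in tissue diagnosis of TFE3-rearranged renal cell carcinoma (TFE3-RCC). These 5 marker genes were taken by name from the 34080 genes to which the transcript counts could be assigned. They were examined in HK-2, a human kidney line immortalised from proximal tubule epithelium. To learn what the fusion protein does in such a cell, the study placed HA-tagged PRCC-TFE3 under a doxycycline-inducible (Tet-On) promoter and sequenced polyadenylated RNA of cells that received 0.2 microg/ml doxycycline for 24 h, called Doxy(+), and of cells that received none, called Doxy(-). Each group had 2 libraries, numbered 1 and 2, and both groups carried the same construct. Since transgene-free cells were not analysed here, what doxycycline does by itself and what PRCC-TFE3 does cannot be told apart. The labels do not say whether the libraries of a group came from separate cultures, so the p-values measure the spread between these libraries, which may be technical.

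TFE3 belongs to the MiT/TFE family of basic helix-loop-helix leucine zipper transcription factors, together with TFEB, TFEC and MITF. These factors bind E-box sequences and drive genes of lysosomes and autophagy, and MITF in addition drives pigment genes in melanocytes and protease genes in osteoclasts. In TFE3-RCC a rearrangement joins a part of TFE3 to another gene such as PRCC, and pathologists look in the tumour for proteins that melanocytes or osteoclasts make under MITF.

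First, the markers were divided by what the data showed. TRIM63 went from no counts at all to a low level in both Doxy(+) libraries, and GPNMB rose 5.44-fold from a level it already had. CTSK, PMEL and MLANA did not pass the test. None of the 5 was undetected in Doxy(+), because CTSK, PMEL and MLANA each had more than 3 estimated counts in all 4 libraries, with and without doxycycline. Called genes had both an adjusted p under 0.05 and an absolute log2 fold change over 1. By edgeR's quasi-likelihood test with Benjamini-Hochberg adjustment, 2 of the 5 markers were called higher and 0 lower, where 1.50% of the 13569 genes tested were called higher, 0.479% lower and 1.98% in either direction. The 3 markers that were not called had unadjusted p-values of 0.0191 for PMEL, 0.235 for CTSK and 0.997 for MLANA in the same fit. All 5 passed the filter on low counts, TRIM63 only through its Doxy(+) libraries. The markers were chosen with earlier results of these data known.

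The libraries held 14042545 to 16618401 estimated counts, of which 12654233 to 15012743 lay on genes. Levels are given as CPM, which are counts scaled to TMM-adjusted library totals of 1000000 and compare 1 gene between libraries, and as TPM, which also allows for transcript length and so compares genes with each other. For a gene with no counts the upper limit is 3 counts, equal to 0.218 CPM (Doxy(-)) or 0.228 CPM (Doxy(+)) and covering counting error only. TFE3 itself, whose transcripts can take up reads of the transgene, had 66.9 and 69.0 CPM in Doxy(-) against 367 and 322 CPM in Doxy(+), a log2 fold change of 2.34 (SE 0.0720). MITF had 21.9 and 23.5 CPM in Doxy(-) and 14.7 and 21.5 CPM in Doxy(+), with a log2 fold change of -0.32 (SE 0.178) and an adjusted p of 0.264 by edgeR. Of 6 defining proximal tubule markers, 4 (LRP2, CUBN, AQP1 and HNF4A) stayed under 1 CPM in all 4 libraries, while PAX8, the renal lineage factor, had 565 to 605 CPM.

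The promoters of the called markers are shown because these are the genes whose transcripts became more abundant. The sequences are the 250 bases before the start, from RefSeq on GRCh38.p14, 5′ to 3′ on the strand of the gene, and the capitals mark the E-box letters CATGTG or, with a T before them, TCATGTG, read on either strand (CACATG and CACATGA on the other one). The upper sequence is chr7:23246525-23246774 on the plus strand and the lower one chr1:26067631-26067880 on the minus strand.
GPNMB: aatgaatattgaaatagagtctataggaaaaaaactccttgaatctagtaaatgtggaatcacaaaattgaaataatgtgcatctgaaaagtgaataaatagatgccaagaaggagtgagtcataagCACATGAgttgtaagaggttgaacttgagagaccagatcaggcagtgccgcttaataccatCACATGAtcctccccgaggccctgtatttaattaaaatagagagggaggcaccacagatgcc
TRIM63: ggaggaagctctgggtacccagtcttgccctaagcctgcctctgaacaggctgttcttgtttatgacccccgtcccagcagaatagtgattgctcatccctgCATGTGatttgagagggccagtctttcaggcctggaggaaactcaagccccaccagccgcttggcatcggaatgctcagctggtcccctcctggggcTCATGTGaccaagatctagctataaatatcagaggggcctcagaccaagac

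In the GPNMB promoter the 7 letters TCATGTG stood on the reverse strand, with their first base 123 and 62 bases before the start. In the TRIM63 promoter CATGTG began 148 and 50 bases before the start, and the copy nearer the start was also TCATGTG. The transcript GPNMB-202, described with the GPNMB values, begins 78 bases before the start used here, so the copy at 62 bases lies within its first exon. Over 27305 promoter windows of 300 bases, 250 before and 50 after the start, 11.2% held CATGTG on either strand and 1.48% held it at 2 or more places. TCATGTG, each copy of which is also a CATGTG, was in 2.99% of these windows and at 2 or more places in 0.106%. The other motifs searched on both strands were CACGTG (7.43% of windows) and its extensions TCACGTGA (1.04%) and GTCACGTG (2.53%), and none of these was in either window. The MLANA window, chr9:5890639-5890938 on the plus strand, held none of the 5 motifs. For CTSK and PMEL no RefSeq promoter was at hand, so their windows were not searched and no sequence is printed. Whether the motifs separate called from uncalled markers is therefore not known. A match of letters is a description of the window, not a site of binding.

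**Figure D1:**
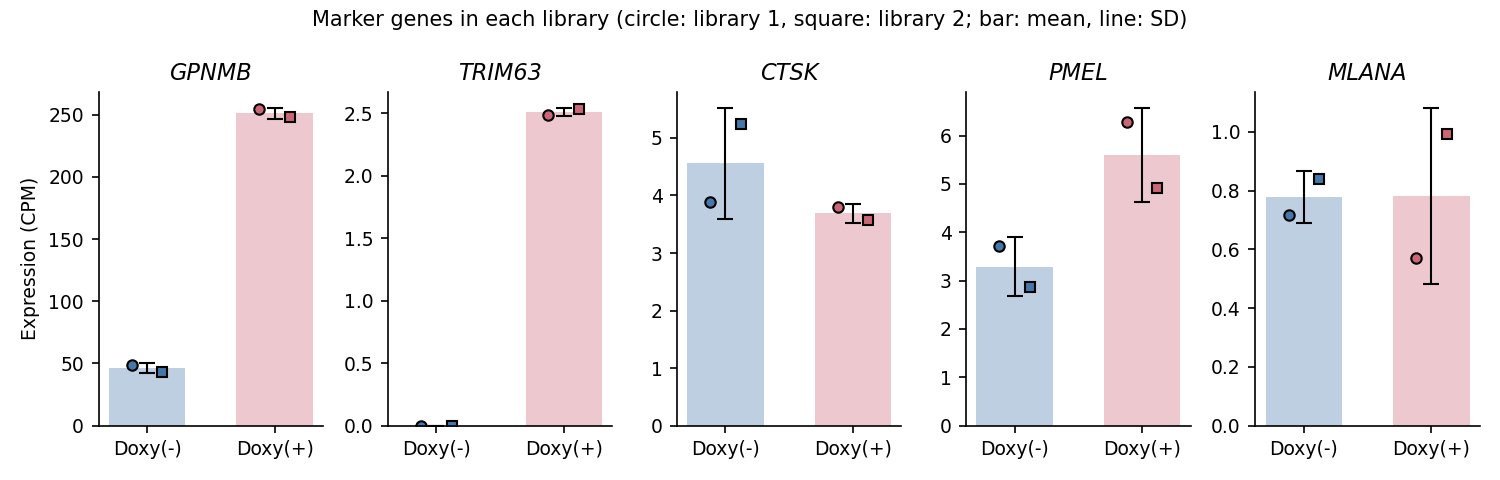
Level of each marker gene in CPM (linear vertical axes starting at 0, one scale per gene) in the 2 Doxy(-) and the 2 Doxy(+) libraries, with circles for library 1, squares for library 2, bars for the mean and lines for the SD. GPNMB and TRIM63 stand well apart between the groups, TRIM63 from 0 CPM in both Doxy(-) libraries, PMEL lies somewhat higher in Doxy(+) without passing the test, and the MLANA values of the groups overlap.

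GPNMB (ENSG00000136235.17, chr7:23235967-23275108, plus strand, hg38) encodes a transmembrane glycoprotein of lysosomes and melanosomes. It had 49.0 CPM in Doxy(-) 1 and 43.6 CPM in Doxy(-) 2, from 632 and 640 estimated counts. In Doxy(+) it had 254 and 248 CPM, from 3274 and 3332 estimated counts. Both Doxy(+) libraries lay far above both Doxy(-) libraries, and the libraries of a group lay close together. Of the genes tested, 31.1% had groups that did not overlap in this direction. The mean level went from 46.3 ± 3.85 CPM to 251 ± 4.31 CPM (SD, n = 2), with a log2 fold change of 2.44 (SE 0.0607, 95% interval 2.29 to 2.59) and an adjusted p of 3.35e-05 by edgeR. As a fold this is 5.44, with an interval of 4.91 to 6.02. Under the 13 alternative settings tried, the log2 fold change stayed between 2.36 and 2.52. On the TPM scale the mean level was 28.4 in Doxy(-), above 63.5% of the genes tested, and 153 in Doxy(+), above 93.3% of them.

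The division of the GPNMB counts among transcripts was then compared. In GENCODE release 44, GPNMB-202 begins 78 bases before GPNMB-201 and carries 36 coding bases (12 codons, no frame shift) at chr7:23266481-23266516 that GPNMB-201 does not have. They are shown, in capitals between 14 bases of flanking exon, as a coding difference between these transcripts. The deposited length of GPNMB-202 is that of GENCODE, but the deposited GPNMB-201 is 2862 bases long against 2650 in GENCODE, so the reads may also have been divided by 212 bases that are not identified here.
GPNMB-202: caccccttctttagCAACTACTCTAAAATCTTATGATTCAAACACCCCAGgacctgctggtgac

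GPNMB-202 had 184 and 173 estimated counts in Doxy(-) and 1879 and 1749 in Doxy(+). Its share of the GPNMB count was 29.1% and 27.1% in Doxy(-) against 57.4% and 52.5% in Doxy(+). GPNMB-201 had 338 and 344 estimated counts in Doxy(-) and 989 and 1143 in Doxy(+), so that its share went from 53.5% and 53.7% to 30.2% and 34.3%. Both transcripts were thus higher in Doxy(+) in each library, and the shares of the groups did not overlap for either. Among the genes tested, CPM groups did not overlap for 31.1% upward and 30.0% downward. For transcript shares this was not counted. GPNMB-203, a shorter coding transcript, had 102 and 114 estimated counts in Doxy(-) and 378 and 425 in Doxy(+).

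None of the 3 passed a test over all 45331 transcripts tested, of which 0.0132% passed both limits. The log2 fold change was 3.42 (95% interval 3.02 to 3.82, adjusted p = 0.108 by edgeR) for GPNMB-202. For GPNMB-201 it was 1.72 (95% interval 1.41 to 2.02, adjusted p = 0.121 by edgeR). In a test of transcript use within genes, edgeR's diffSpliceDGE, GPNMB-202 was higher relative to the rest of its gene by 0.66 on the log2 scale with an adjusted p of 0.105, where 0.365% of transcripts passed an adjusted p under 0.05. Both transcript tests were chosen after the values had been seen, and the quantifier divides a read that fits several transcripts between them.

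**Figure D2:**
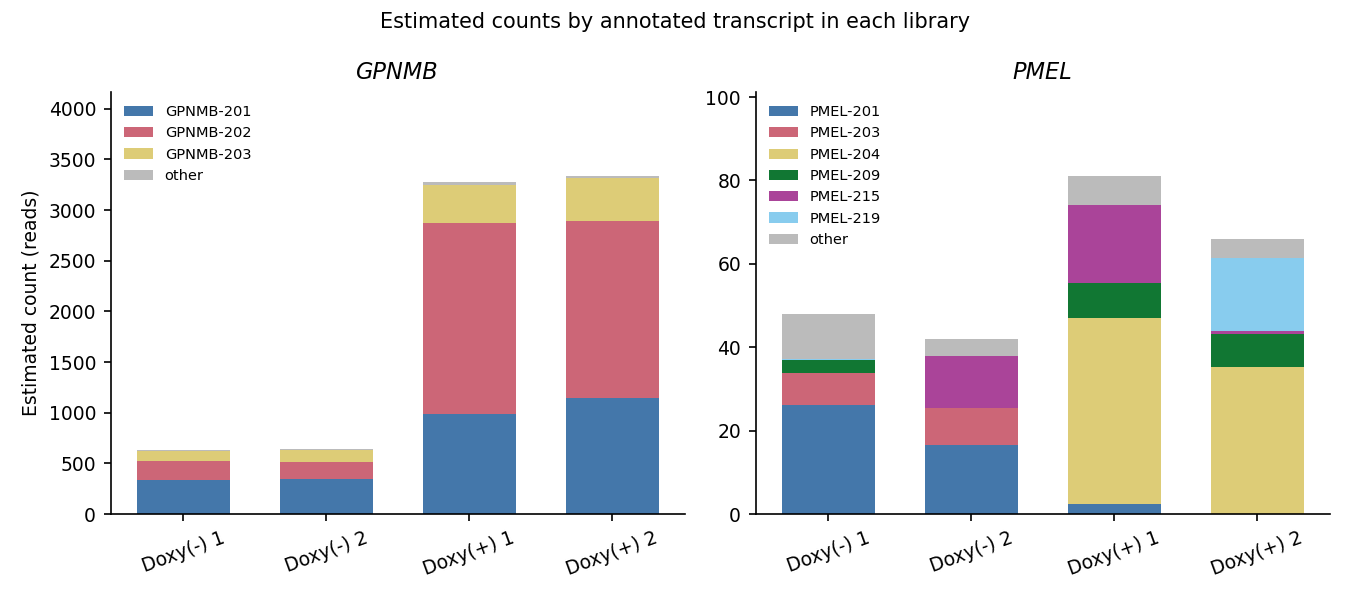
Estimated counts (vertical axes, linear, from 0) of the annotated transcripts of GPNMB on the left and PMEL on the right, stacked for each of the 4 libraries. In GPNMB the part of GPNMB-202 was 29.1% and 27.1% of the gene's count in Doxy(-) and 57.4% and 52.5% in Doxy(+), and in PMEL the transcript PMEL-204 appears in the Doxy(+) libraries at 44.7 and 35.2 estimated counts and at 0 in Doxy(-).

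TRIM63 (ENSG00000158022.7, chr1:26051301-26068436, minus strand, hg38) encodes MuRF1, a ubiquitin ligase best known from wasting skeletal muscle. It had 0 estimated counts in both Doxy(-) libraries. In Doxy(+) it had 32 and 34 estimated counts, which are 2.49 and 2.53 CPM. The groups did not overlap, as for 31.1% of the genes tested in this direction, and the Doxy(+) libraries were nearly equal. Against the 3 counts per library that a 0 allows, TRIM63 was at least 11.5-fold higher in Doxy(+), which is 3.52 on the log2 scale. The adjusted p was 0.00298 by edgeR. TRIM63 passed the filter on low counts only through its Doxy(+) libraries, so this value is given as a description. Without that filter the adjusted p was 0.000153 by edgeR. The fitted log2 fold change of 8.08 depends on the prior count and is no bound. With limma on log2(TPM + 0.1) the adjusted p was 0.0538 and the call was lost, while over the other 12 alternative settings the adjusted p ranged from 9.96e-05 to 0.0255. All TRIM63 counts lay on TRIM63-201, the coding transcript, and TRIM63-202 had none.

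The level reached was low. TRIM63 stood at 2.19 and 2.23 TPM in Doxy(+), above 12.2% of the genes tested. Genes that were switched on were few. Of 18097 genes with at most 3 estimated counts in each Doxy(-) library, 8 (0.0442%) had over 1 CPM in each Doxy(+) library. TRIM63 had the highest mean CPM among them, 2.51, but CPM does not compare genes with each other. In mean TPM in Doxy(+), ENSAP2 (11.2) and PPFIBP2 (2.35) stood above TRIM63 (2.21). By mean CPM SYT16, a synaptotagmin family gene, followed among the coding genes, with 0 CPM in Doxy(-) and 1.70 and 1.40 CPM in Doxy(+). Its mean TPM in Doxy(+) was 0.733, below that of PPFIBP2. PPFIBP2 had 0.0776 and 0.204 CPM in Doxy(-) and 1.24 and 1.42 CPM in Doxy(+). ENSAP2 and ENSG00000250575 are annotated pseudogenes, whose counts are uncertain because reads can be divided with their parent genes. In the other direction 4 of 18008 genes (0.0222%) were switched off, and none of the 5 markers was among them. Those 4 were TMEM183BP, PVRIG2P and ZBTB45P2, which are annotated pseudogenes, and LY75-CD302, a readthrough of neighbouring genes, so their counts are uncertain as well.

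CTSK (ENSG00000143387.14, chr1:150794880-150809577, minus strand, hg38) encodes cathepsin K, the lysosomal cysteine protease with which osteoclasts digest bone collagen. It had 3.88 and 5.24 CPM in Doxy(-), from 50 and 77 estimated counts. In Doxy(+) it had 3.81 and 3.58 CPM, from 49 and 48 estimated counts. Doxy(-) 2 stood above the other libraries, which were alike. In CPM the groups did not overlap, as for 30.0% of the genes tested in this direction, but in TPM they did, with 3.97 and 5.05 in Doxy(-) against 3.95 and 4.03 in Doxy(+). The log2 fold change was -0.31 (SE 0.235, 95% interval -0.88 to 0.26) with an adjusted p of 0.418 by edgeR. As a fold the interval runs from 0.543 to 1.20, so that a log2 fold change of 1 in either direction lies outside it. Without Doxy(-) 2 the log2 fold change was -0.07, and over all alternatives the adjusted p ranged from 0.256 to 0.900. Of 20 annotated CTSK transcripts 3 were in the tables, and CTSK-201 held between 83.2% and 94.1% of the gene's counts.

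PMEL (ENSG00000185664.15, chr12:55954105-55973317, minus strand, hg38) encodes the protein that forms the fibrils on which melanosomes lay down pigment. It had 3.73 and 2.86 CPM in Doxy(-), from 48.0 and 42.0 estimated counts. In Doxy(+) it had 6.29 and 4.92 CPM, from 81.0 and 66.0 estimated counts. Both Doxy(+) libraries lay above both Doxy(-) libraries, as for 31.1% of the genes tested. The mean level was 3.29 ± 0.613 CPM in Doxy(-) and 5.60 ± 0.971 CPM in Doxy(+) (SD, n = 2), and the log2 fold change of 0.77 (SE 0.244, 95% interval 0.18 to 1.36) did not pass the test, with an adjusted p of 0.0796 by edgeR. Over the alternatives the log2 fold change ranged from 0.58 to 0.96 and the adjusted p from 0.0594 to 0.342. PMEL exons share 89 bases with exons of CDK2, a cell cycle kinase gene on the opposite strand, and PMEL-208 is the one PMEL transcript that reaches past the CDK2 start. PMEL-208 held at most 3.94 estimated counts in any library, and CDK2 had 138 and 132 CPM in Doxy(-) against 132 and 118 CPM in Doxy(+).

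The PMEL counts of the 4 libraries were assigned to 13 of the 19 annotated transcripts. PMEL-204, whose first exon (59 bases, chr12:55966678-55966736) starts 714 bases upstream of PMEL-201, had 0 estimated counts in both Doxy(-) libraries and 44.7 and 35.2 in Doxy(+). The start of PMEL-204 lies 45 bases from that of CDK2. PMEL-201 showed the opposite, with 26.1 and 16.5 estimated counts in Doxy(-) and 2.37 and 0 in Doxy(+). Of the 19 PMEL transcripts 5 begin near PMEL-204, and their estimated counts summed to 0 and 0 in Doxy(-) and 47.5 and 35.2 in Doxy(+). PMEL-208, which begins further upstream, is not among them and had 3.94 and 0 estimated counts in Doxy(-) and 2.15 and 0 in Doxy(+). Over the 9 transcripts that begin at the PMEL-201 start the estimated counts were 40.8 and 42.0 in Doxy(-) and 22.9 and 3.80 in Doxy(+). For the class near PMEL-204 and the class at the PMEL-201 start the groups did not overlap. How often this happens for such classes in other genes was not counted.

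Transcripts PMEL-201 and PMEL-204 also differ by 21 coding bases (7 codons, no frame shift) at chr12:55955362-55955382. They are shown in capitals between 14 bases of flanking exon, on the minus strand, as the stretch that only PMEL-201 of this pair holds.
PMEL-201: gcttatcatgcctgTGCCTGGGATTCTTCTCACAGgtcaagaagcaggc

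Transcripts with the stretch had 26.1 and 16.5 estimated counts in Doxy(-) and 2.37 and 0 in Doxy(+). Transcripts that span the place without it had 0 and 16.5 estimated counts in Doxy(-) and 63.4 and 35.8 in Doxy(+). The classes follow GENCODE release 44, whose PMEL-206, with 4.22 estimated counts in Doxy(-) 2 and 0 elsewhere, has another length than the deposited one. In the test over all transcripts neither PMEL-204 (adjusted p = 0.264 by edgeR) nor PMEL-201 (adjusted p = 0.511 by edgeR) passed, and in the test of transcript use PMEL-204 had an adjusted p of 0.633 by edgeR. These classes were formed after the values had been seen, each rests on at most 63.4 estimated counts in a library, and the division of reads among such transcripts was made by the quantifier.

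MLANA (ENSG00000120215.10, chr9:5890889-5910606, plus strand, hg38) encodes Melan-A, a small membrane protein of melanosomes. It had 0.715 and 0.841 CPM in Doxy(-), from 9.22 and 12.4 estimated counts. In Doxy(+) it had 0.571 and 0.994 CPM, from 7.35 and 13.3 estimated counts. The lowest and the highest library were both Doxy(+), so the groups overlapped, and every library was above the limit of 3 counts. The log2 fold change was -0.00 (SE 0.477, 95% interval -1.17 to 1.16), with an adjusted p of 0.999 by edgeR. Without Doxy(-) 2 the log2 fold change was 0.12 and without Doxy(+) 1 it was 0.35, so even its sign was not settled. As a fold the interval runs from 0.446 to 2.24, and a log2 fold change of 1 in either direction was not detectable at this depth. With counts scaled from TPM the log2 fold change was -1.01 (adjusted p = 0.345 by edgeR). In TPM the groups did not overlap, with 0.870 and 1.04 in Doxy(-) against 0.364 and 0.631 in Doxy(+). The share of all genes without overlap in TPM was not counted. The TPM difference moved with the transcript to which a few counts were assigned. MLANA-203, the longest transcript, held 100% of the counts in both Doxy(+) libraries but 82.9% and 73.3% in Doxy(-).

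**Figure D3:**
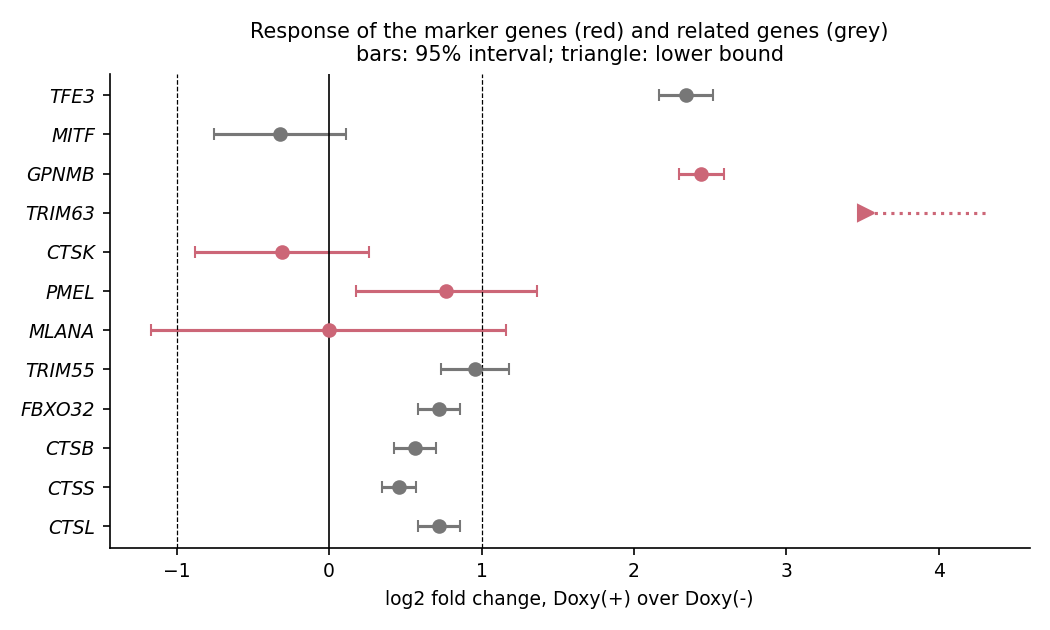
log2 fold change of Doxy(+) over Doxy(-) (horizontal axis) for the 5 marker genes in red and for related genes in grey, with 95% intervals and dashed lines at a change of 1 in either direction. GPNMB lies beyond the line at 2.44, and TRIM63 is drawn as a lower bound at 3.52. The interval of CTSK (-0.31) lies wholly between the lines, while those of PMEL (0.77) and MLANA (-0.00) cross them. TRIM55, FBXO32, CTSB, CTSS and CTSL lie between 0.46 and 0.96.

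Next, the levels of the markers were set in order in TPM. In Doxy(-) the order of the mean TPM was GPNMB (28.4), CTSK (4.51), PMEL (3.52), MLANA (0.956) and TRIM63 (0). CTSK and PMEL overlapped between libraries there, with PMEL at 4.51 and 2.53 TPM, and the other neighbours in the order did not. In Doxy(+) the order of the mean TPM was GPNMB (153), PMEL (6.33), CTSK (3.99), TRIM63 (2.21) and MLANA (0.497), with no overlap between neighbours. GPNMB was thus the most abundant of the 5 in both groups. The order of PMEL and CTSK in Doxy(+) depends on how reads were assigned to transcripts. In Doxy(+) 2, 2.96 TPM of PMEL lay on PMEL-219, a retained-intron transcript with 17.7 estimated counts there and 0 in Doxy(+) 1. Without that part PMEL would stand below CTSK (4.03 TPM) in Doxy(+) 2. The deposited lengths of all 3 CTSK transcripts also differ from those in GENCODE, which bears on the CTSK TPM. In bulk RNA, more cells with a transcript and more transcript per cell cannot be told apart, and this holds for each level given here.

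The markers were then set beside the other genes of the programmes that they represent. In the lists that follow, counts are of genes at an adjusted p under 0.05 by edgeR. Of all genes tested 9.76% were higher and 9.53% lower at that limit, with a median log2 fold change of 0.00. The lists were chosen with earlier results of these data known, so their counts beside these shares are a description. MiT/TFE targets, 21 genes of lysosomes, autophagy and nutrient signalling, had 20 higher and 0 lower, 11 of them past both limits, with a median log2 fold change of 1.01. RRAGD, a Rag GTPase, rose from 20.7 and 21.0 CPM to 78.4 and 77.9 CPM, a log2 fold change of 1.90 (SE 0.0565). SQSTM1, the autophagy receptor p62, rose from 43.6 and 44.1 CPM to 148 and 215 CPM. WIPI1 was the exception, with a log2 fold change of -0.01. The other 9 past both limits were ASAH1, ATP6V1C1, CTSA, FNIP2, HMOX1, MCOLN1, NEU1, PPARGC1A and RRAGC, with log2 fold changes between 1.01 and 1.60. ASAH1 stood at the limit, with a log2 fold change of 0.98 without Doxy(-) 2 and 0.87 without Doxy(+) 1. The GPNMB log2 fold change of 2.44 stood above the highest of the 21, that of SQSTM1 at 2.05. This rank holds for the list as drawn up. ATP6V0D2, a proton pump subunit placed in the osteoclast list below, had 2.47.

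Of 18 other melanocyte genes 11 stayed under 1 CPM in all 4 libraries and 7 were tested, of which 2 were higher, 0 were lower and 5 did not pass, with a median log2 fold change of 0.43. RAB38, a melanosome trafficking GTPase, rose from 9.23 and 9.46 CPM to 16.1 and 16.5 CPM, a log2 fold change of 0.80 (SE 0.105). MLPH, which links melanosomes to myosin, rose from 67.4 and 65.7 CPM to 98.5 and 89.2 CPM, a log2 fold change of 0.50 (SE 0.0637). Neither passed the limit on size. Of the 5 defining melanocyte markers, SOX10, TYR, TYRP1 and DCT stayed at or under 0.388 CPM in each library, and MITF is the one above 1 CPM. The summed level of the 5 was 22.7 to 23.9 CPM in Doxy(-) and 15.0 to 22.1 CPM in Doxy(+). The pigment enzyme genes TYR, TYRP1 and DCT each exceeded 3 estimated counts in 1 library, with at most 5, while PMEL and MLANA exceeded 3 in all 4.

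For CTSK the relatives are the cysteine cathepsins and the genes of the osteoclast. Of 10 other cysteine cathepsins 9 were tested, 6 were higher, 1 was lower and 0 passed both limits, with a median log2 fold change of 0.46. CTSL, a broadly expressed lysosomal cathepsin, rose from 65.1 and 69.1 CPM to 114 and 108 CPM, a log2 fold change of 0.72 (SE 0.0559). CTSS, a close relative of CTSK, rose from 96.3 and 93.4 CPM to 132 and 128 CPM, a log2 fold change of 0.46 (SE 0.0448). CTSB rose as well, from 136 and 123 CPM to 188 and 194 CPM, while CTSZ was lower by a log2 fold change of -0.15. Whether the change of CTSK differs from those of its relatives was not tested.

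Among 15 osteoclast genes 11 were tested, with 3 higher, 1 lower and a median log2 fold change of 0.25. The lower one was ITGB3, which fell from 303 and 296 CPM to 216 and 220 CPM, a log2 fold change of -0.46 (SE 0.0338). ATP6V0D2, a proton pump subunit of osteoclasts, was the one past both limits and went from 3.06 and 2.73 CPM to 17.0 and 15.0 CPM, a log2 fold change of 2.47 (SE 0.153). CLCN7, the chloride transporter of lysosomes and of the osteoclast's ruffled border, rose from 93.8 and 90.7 CPM to 172 and 160 CPM. Of the 5 defining osteoclast markers, CALCR, OSCAR and DCSTAMP stayed under 1 CPM in all 4 libraries, and the 5 summed to 1.73 to 2.30 CPM in Doxy(-) and 1.39 to 3.85 CPM in Doxy(+).

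For TRIM63 the list held 12 muscle genes and TRIM63 relatives, of which 8 stayed under 1 CPM in all 4 libraries. The 4 tested had 2 higher and 0 lower, with a median log2 fold change of 0.84. The 2 that did not pass were TTN and ACTN2. TTN had 74.6 and 67.4 CPM in Doxy(-) and 70.6 and 61.2 CPM in Doxy(+), a log2 fold change of -0.11. ACTN2 had at most 1.76 CPM in any library, with a log2 fold change of 1.04 (95% interval -0.32 to 2.40). TRIM55, which encodes the related ligase MuRF2, had 34.5 and 41.7 CPM in Doxy(-) and 75.5 and 72.8 CPM in Doxy(+), a log2 fold change of 0.96 (SE 0.0925) with an adjusted p of 0.00152 by edgeR. Without Doxy(-) 2 its log2 fold change was 1.10, past the limit. It stayed under the limit without Doxy(-) 1 (0.83), Doxy(+) 1 (0.93) or Doxy(+) 2 (0.98). FBXO32, the other ubiquitin ligase gene of muscle wasting, rose from 39.7 and 38.0 CPM to 63.7 and 64.4 CPM, a log2 fold change of 0.72 (SE 0.0561). The groups stood apart for both genes, as for 31.1% of the genes tested in this direction. Both genes were expressed without doxycycline, unlike TRIM63. TRIM54, the third MuRF gene, had at most 0.298 CPM in any library and was not tested. The 5 defining muscle markers MYOD1, MYOG, DES, CKM and ACTA1 were under 1 CPM in all 4 libraries, 3 of them with no count at all, and summed to 0 CPM in Doxy(-) and 0.223 to 0.233 CPM in Doxy(+).

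**Figure D4:**
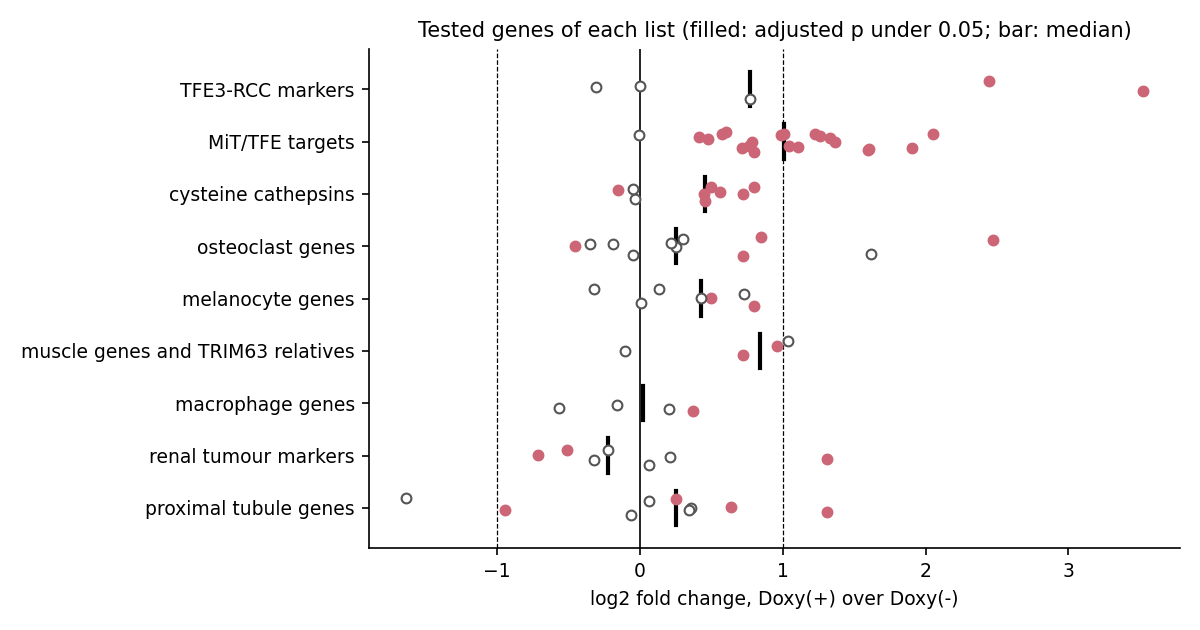
log2 fold change of Doxy(+) over Doxy(-) (horizontal axis) of each tested gene in the lists named on the vertical axis, filled where the adjusted p was under 0.05, with a bar at the median of each list and TRIM63 at its lower bound of 3.52. The MiT/TFE targets lie to the right with a median of 1.01. The 4 tested muscle genes and TRIM63 relatives have a median of 0.84 and the cysteine cathepsins 0.46. The melanocyte, osteoclast, macrophage and renal lists have medians between -0.23 and 0.43.

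Macrophages also express GPNMB. Of 12 macrophage genes 4 were tested, with CD68, a lysosomal membrane protein, the one that was higher (log2 fold change 0.37, SE 0.0388), 0 lower and a median of 0.02. The 5 defining macrophage markers summed to 4.19 to 4.24 CPM in Doxy(-) and 4.57 to 5.13 CPM in Doxy(+), 4 of them (all but CSF1R) under 1 CPM in all 4 libraries and TYROBP with no count. GPNMB itself went from 46.3 to 251 CPM on average. CPM do not compare these genes with each other, and a link between them was not tested.

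Furthermore, the markers were compared with those that pathologists use for other renal tumours. Of 15 such genes 7 were tested, with 1 higher, 2 lower and a median log2 fold change of -0.23. MME, the brush border peptidase CD10, was past both limits, from 4.71 and 4.86 CPM to 12.6 and 11.2 CPM (log2 fold change 1.31, SE 0.147, adjusted p = 0.00264 by edgeR), but its adjusted p was 0.0783 and 0.0787 by limma on TPM and 0.102 by edgeR on counts scaled from TPM. VIM, vimentin, fell by 0.51 on the log2 scale (SE 0.0261), and AMACR, an enzyme of branched fatty acid breakdown and a marker of papillary tumours, was lower by a log2 fold change of -0.71 (SE 0.147). CA9, the marker of clear cell tumours, had no count in any library. Of 14 proximal tubule genes 9 were tested, with 3 higher and 1 lower. That one was CDH6, kidney cadherin, from 143 and 146 CPM to 77.6 and 72.5 CPM.

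Finally, the genes most like each marker were found over the 4 libraries by the Euclidean distance between log2 CPM values centred on each gene's mean. Nearest to GPNMB were ATP6V0D2 (distance 0.0989), CENPT, a kinetochore gene (0.182), and PTENP1, a pseudogene (0.215). CENPT went from 33.4 and 32.7 CPM to 208 and 185 CPM. Nearest to TRIM63 were NMRK2, a nicotinamide riboside kinase (0.356), ADAT3, a transfer RNA deaminase subunit (0.723), and RSPO3, a secreted enhancer of Wnt signalling (0.820). NMRK2 went from 0.543 and 0.408 CPM to 13.7 and 12.4 CPM, and the distances here were larger than for the other markers.

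Nearest to PMEL were IL17D (distance 0.0987), DIRC3 (0.101) and PITPNM2 (0.110), with log2 fold changes between 0.66 and 0.89. Nearest to CTSK were PSPN (0.0376), ARPC4 (0.0434) and LTB4R (0.0434), none of which passed the test, with adjusted p-values of 0.187 to 0.428 by edgeR. Nearest to MLANA were FLJ20021 (0.0239), the copper transporter gene ATP7B (0.0642) and the pseudogene RPL23AP7 (0.0650), which shared with it a low and a high library in Doxy(+). With 4 libraries such likeness is a description.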

How the data were processed

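Polyadenylated RNA of HK-2 cells was sequenced by the study as single-end reads of 75 nt from stranded TruSeq libraries, 2 per group. The submitters' processing notes name Trim Galore 0.6.6, cutadapt 2.5 and STAR 2.7.9a with hg38, and the study's methods name RSEM for quantification. The deposited tables hold an estimated (expected) count and a TPM for each of 180253 Ensembl transcripts, in columns laid out as kallisto writes them. Which program wrote these columns, its Ensembl release and its strand setting are not given in the sources used here. Among the 43 deposited marker transcripts, 37 have the length that GENCODE release 44 gives, and GPNMB-201, MLANA-203, PMEL-206 and all 3 of CTSK do not. The deposited estimated counts are not normalized, and the deposited TPM were scaled by the authors' quantifier to 1000000 per library.

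The gene of each transcript was taken from GENCODE release 44, which matched 150691 identifiers (83.6%). The unmatched ones carried 9.66% to 9.89% of the counts and were left out, and none of them duplicated a transcript of the 5 markers. Counts summed per gene were rounded. The test was edgeR 4.0.16 under R 4.3.3 (TMM, filterByExpr, quasi-likelihood F test, group as the only term, Benjamini-Hochberg adjustment). It was also run on simulated counts, with 1 common dispersion for all genes and changes only in genes with more counts than TRIM63 or MLANA. That run does not cover such low counts, and nothing is concluded from it here. Standard errors are those implied by the F statistic. The limits for calling a gene are those of the study, which used DESeq2. Alternatives were RLE size factors, other low-count filters, DESeq2 1.42.0, limma 3.58.1 on log2(TPM + 1) and log2(TPM + 0.1) for genes with a mean TPM of at least 1, counts scaled from TPM, copies among unmatched identifiers added, the replicate number as a block and leaving out each library. Transcript tests and leaving out libraries for the genes switched on were added after the data had been seen.

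The markers and the 8 lists of other genes were chosen with earlier results of these data known. The genes named are the markers, TFE3, listed genes past both limits, the 2 of each list with the smallest p, the nearest relatives or factors TRIM54, TRIM55, FBXO32, MITF, CTSS and CTSB, genes with exons overlapping a marker, the 3 genes nearest to each marker with a mean of at least 1 CPM (log2 CPM, prior count 2), and at most 5 genes switched on or off. ACTN2, AMACR, CA9, CTSZ, ITGB3, PAX8, TTN, WIPI1 and the defining cell type markers were named beside them after their values were seen. Promoters of 3 markers were matched in the RefSeq table.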

Additional observations from a re-analysis of the deposited data

How the results depend on the processing

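With 2 libraries per group each SD is imprecise, and depth limits MLANA, at 7.35 to 13.3 estimated counts, and TRIM63, at 0 counts in Doxy(-), whose fold is only a bound. TRIM63 also passed the filter on low counts only through Doxy(+). GPNMB kept its call in all 13 alternative fits, and CTSK and PMEL passed the test in none of 13. TRIM63 kept its call in 12 of 13, with limma on log2(TPM + 0.1) giving 4.53 and an adjusted p of 0.0538, so that 1 marker was called there in place of 2. In the fit over transcripts, added after seeing the data, 0 transcripts of the markers and 4 transcripts in all were called higher. The cause was not tested.

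The 203 genes called higher became 117 and the 65 lower became 32 with limma on log2(TPM + 1), 134 and 34 on log2(TPM + 0.1), 123 higher with counts scaled from TPM, and 124 and 34 at an adjusted p under 0.01. DESeq2 called 145 and 47. Without the low-count filter 225 and 97 were called. Leaving out each library gave 147 to 216 higher and 67 to 88 lower. The 8 genes switched on became 3 with a limit of 0 counts, 31 over 0.5 CPM, 1 over 2 CPM and 16 to 24 without each library, where a library fewer has to meet the rule.

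The sign of the log2 fold change changed for 6 genes, none of which passed the test in the reported fit. LTB4R, at -0.33 in that fit, lay furthest from 0 among them. MLANA ranged from -0.48 to 0.35 without each library (0.12 without Doxy(-) replicate 2, 0.35 without Doxy(+) replicate 1), and was -1.01 with counts scaled from TPM. With limma on log2(TPM + 1) and on log2(TPM + 0.1), CDK2 was 0.0253 and 0.0254 and LTB4R 0.0132 and 0.0143. FLJ20021 was -0.21 and -0.25 in the limma fits, -0.16 with counts scaled from TPM, and between -0.41 and 0.33 without each library. ATP7B was -0.00408 without the low-count filter and between -0.37 and 0.30 without each library, and RPL23AP7 lay between -0.48 and 0.26. PPFIBP2 and MME kept their direction but lost the call in 5 and 3 alternatives, ASAH1 in 2. The adjusted p of PPFIBP2 was 0.0702 without Doxy(-) replicate 1, 0.0678 without Doxy(+) replicate 1 and 0.0823 without Doxy(+) replicate 2.

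Libraries of the same number did not deviate together (r = -0.01 over 13569 genes), so the numbers are not shown to pair the libraries. With the replicate block 204 genes were called higher and 68 lower, 2 of the markers among them, FLJ20021 was -0.0140 and ATP7B -0.0136. The block changed no marker's call.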
